A study of Mus musculus with 6 samples.

Results

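UDP-glucuronosyltransferases (UGTs) and sulfotransferases (SULTs) are the enzymes that conjugate hormones, bile acids, bilirubin and drugs with glucuronic acid or sulfate, and their mRNA was compared between livers of AAV-Glrx and AAV control mice on a NASH diet. The family was taken as every measured gene whose mouse symbol starts with Ugt1a, Ugt2a, Ugt2b, Ugt3a or Sult and a digit, with pseudogenes left out. This gave 37 of 27381 genes, 16 UGTs and 21 SULTs. The RefSeq table lists 42 protein-coding genes under these names, and the other 5, all of the Ugt1a group, were not analysed here.

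The study asked which liver genes differ when hepatocytes carry additional glutaredoxin-1, encoded by Glrx, an enzyme that removes glutathione from protein thiols. Wild-type male C57BL/6J mice ate the NASH diet (40% of energy from fat, supplied by palm oil, and 20% from fructose, with cholesterol at 2%) for 32 weeks from 10 weeks of age. Both groups received an adeno-associated virus by intraperitoneal injection at week 20 (1e+12 vector genomes) and were killed 12 weeks later. In the AAV-Glrx group it carried mouse Glrx behind the thyroxine-binding globulin promoter, which is active in hepatocytes, and in the AAV control group the same cassette was empty. RNA of 5 or 6 mice per group was combined into 3 pools per group and hybridized to Affymetrix Mouse Gene 2.0 ST arrays. The sources used here do not say how mice were assigned to the pools. A pool may hold 1 mouse, and the p-values measure only the spread between pools.

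UGTs sit in the membrane of the endoplasmic reticulum and transfer glucuronic acid from UDP-glucuronic acid, whereas SULTs are cytosolic and transfer sulfate from 3'-phosphoadenosine-5'-phosphosulfate (PAPS). Both reactions make lipophilic molecules soluble, so that they can be pumped into bile or blood. The UGT1A group handles bilirubin and phenols, the UGT2B group steroids and bile acids, the SULT1 group phenols, catechols and estrogens, and the SULT2A group hydroxysteroids and bile acids. In rodents several of these genes are expressed at different levels in male and female liver.

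Promoters are shown for the genes on which the results turn, from RefSeq on assembly GRCm38.p6, as 250 bases before and 50 bases after a start. Of the 37 genes, 31 were matched to 34 such windows. Sult2a8, the bile acid sulfotransferase of mouse liver, had the largest difference of the family and is given with both of its starts, the first at chr7:14446538-14446837 and the second at chr7:14438502-14438801, on the minus strand. Ugt2b38 (chr5:87424154-87424453), Ugt2b5 (chr5:87140291-87140590) and Ugt2b37 (chr5:87254739-87255038), also on the minus strand, are shown because their letters are much alike, and Ugt2b35 (chr5:87000610-87000909, plus strand) because its groups did not overlap. Capitals mark AGGTCA, the core hexamer bound by nuclear receptors, and ATTGAT, the core of the site of hepatocyte nuclear factor 6, on either strand (TGACCT and ATCAAT in reverse), which do not overlap one another in these windows.
Sult2a8, first start: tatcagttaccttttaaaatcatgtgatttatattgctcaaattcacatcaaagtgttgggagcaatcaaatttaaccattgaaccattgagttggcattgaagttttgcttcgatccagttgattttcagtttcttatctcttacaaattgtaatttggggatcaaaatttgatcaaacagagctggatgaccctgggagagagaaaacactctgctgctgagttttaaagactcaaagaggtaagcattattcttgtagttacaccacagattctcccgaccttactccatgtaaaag
Sult2a8, second start: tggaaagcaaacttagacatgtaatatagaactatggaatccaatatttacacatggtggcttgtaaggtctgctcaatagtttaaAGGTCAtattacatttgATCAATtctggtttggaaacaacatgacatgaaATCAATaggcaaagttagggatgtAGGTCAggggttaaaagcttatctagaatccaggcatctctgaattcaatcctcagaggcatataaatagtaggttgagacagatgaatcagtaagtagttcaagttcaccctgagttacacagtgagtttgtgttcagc
Ugt2b38: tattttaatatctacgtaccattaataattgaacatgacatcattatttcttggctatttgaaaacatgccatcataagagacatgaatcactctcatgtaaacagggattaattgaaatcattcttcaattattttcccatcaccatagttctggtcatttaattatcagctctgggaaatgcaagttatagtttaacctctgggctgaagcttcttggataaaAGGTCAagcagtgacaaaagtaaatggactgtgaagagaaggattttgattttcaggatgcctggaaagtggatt
Ugt2b5: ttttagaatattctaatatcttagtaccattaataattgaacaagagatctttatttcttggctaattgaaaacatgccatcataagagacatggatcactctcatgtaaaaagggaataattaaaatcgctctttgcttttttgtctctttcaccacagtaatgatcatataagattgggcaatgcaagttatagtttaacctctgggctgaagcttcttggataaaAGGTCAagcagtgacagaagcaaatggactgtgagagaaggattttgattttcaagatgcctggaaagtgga
Ugt2b37: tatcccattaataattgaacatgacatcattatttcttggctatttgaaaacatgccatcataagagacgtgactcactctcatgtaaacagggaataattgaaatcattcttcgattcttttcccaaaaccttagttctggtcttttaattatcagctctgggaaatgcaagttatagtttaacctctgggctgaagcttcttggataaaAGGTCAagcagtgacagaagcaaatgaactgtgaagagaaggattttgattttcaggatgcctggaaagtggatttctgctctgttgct
Ugt2b35: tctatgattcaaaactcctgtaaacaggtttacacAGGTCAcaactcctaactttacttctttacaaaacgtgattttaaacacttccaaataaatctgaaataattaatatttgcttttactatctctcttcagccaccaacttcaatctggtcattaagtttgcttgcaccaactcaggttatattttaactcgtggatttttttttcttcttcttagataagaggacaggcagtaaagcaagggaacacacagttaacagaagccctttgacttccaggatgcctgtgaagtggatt

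Aligned over their whole length, the windows of Ugt2b38 and Ugt2b37 were 86.9% identical, those of Ugt2b38 and Ugt2b5 84.2%, and those of Ugt2b5 and Ugt2b37 76.2%. AGGTCA was found in 5 of the 7 Ugt2b windows and in 10 of the 34 family windows (29.4%), against 16.3% of the 32851 windows in the table. Close copies, such as the Ugt2b38, Ugt2b37 and Ugt2b5 windows among these, can share a match, so family windows are not independent of one another. ATTGAT was found in 6 family windows (17.6%, against 7.54% of all). The second Sult2a8 start holds 2 matches of each, and the first holds neither. Other motifs were searched on both strands too. TATAAA, the TATA box, was in 32.4% of family windows (13.6% of all), and GTTAAT, the core bound by hepatocyte nuclear factor 1, in 32.4% (7.1% of all). GCGTG, the core bound by the aryl hydrocarbon receptor, was in 11.8% (32.4% of all), TTCNNNGAA, the STAT site, in 2.94% (8.3% of all), and TGACNNNGC, the core of the antioxidant response element, in 0 of 34 (12.4% of all). A match of letters is a description of the window and not a bound site.

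The deposited values are log2 expression, 1 value per gene and array, with a median of 3.929 over all genes and arrays. Array medians ran from 3.893 to 3.949, and Pearson's r between any 2 arrays, across genes, was 0.987 to 0.991. Glrx, the transgene, was 6.11, 6.03 and 5.66 in AAV control 1, 2 and 3 and 6.60, 7.77 and 7.24 in AAV-Glrx 1, 2 and 3, so every AAV-Glrx pool was above every AAV control pool. The array value does not separate vector mRNA from the mouse's own. Its log2 fold change was 1.27 (standard error, SE, 0.27; limma, adjusted p = 0.847). At an adjusted p under 0.1, limma called 1 of 27381 genes (0.00365%), Zbtb16 at a log2 fold change of -2.12, which is no member of the family. Leaving out AAV control 2, AAV control 3, AAV-Glrx 1 or AAV-Glrx 3 took its adjusted p in limma to 0.842, 0.251, 0.369 or 0.355. Hepatocyte markers were level between the groups: of 18 measured, 13 had a higher and 5 a lower mean in AAV-Glrx, and their median log2 fold change was 0.03. An exact permutation test of 3 against 3 pools cannot give a p below 0.1, so single genes were read by limma.

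No UGT or SULT passed the adjusted threshold in AAV-Glrx liver (limma, 0 of 37, adjusted p from 0.847 to 0.998), and the differences below are described by size and by the separation of the pools. At an unadjusted limma p below 0.05, 4 of the 37 genes (10.8%) were higher, against 2.76% of all genes, and 0 were lower, against 3.01%. The 4 were Sult2a8, Ugt2b38, Ugt2b35 and Ugt1a6b. In the same 4 genes every AAV-Glrx pool lay above every AAV control pool (10.8%, against 5.51% of all genes), and in 1 gene, Sult1a1, every AAV-Glrx pool lay below (2.7%, against 5.38%). Over the family 23 genes had a higher and 14 a lower mean. The family's median log2 fold change was 0.03, where the median of all genes was -0.0012 and 49.5% of them had a higher mean.

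Most UGTs had a higher mean and the SULTs were split. Of the 16 UGTs, 14 had a higher mean in AAV-Glrx and 3 were higher at an unadjusted p below 0.05, with a median log2 fold change of 0.09. Of the 21 SULTs, 9 had a higher mean and 1 was higher at that p, with a median of -0.02. The difference between these medians was not tested. By level, 12 UGTs and 4 SULTs were above the median of all genes, and 4 UGTs and 17 SULTs were at or below it. There the values lie closer to background, and a fold change may be understated or may be noise, which was not tested.

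**Figure D1:**
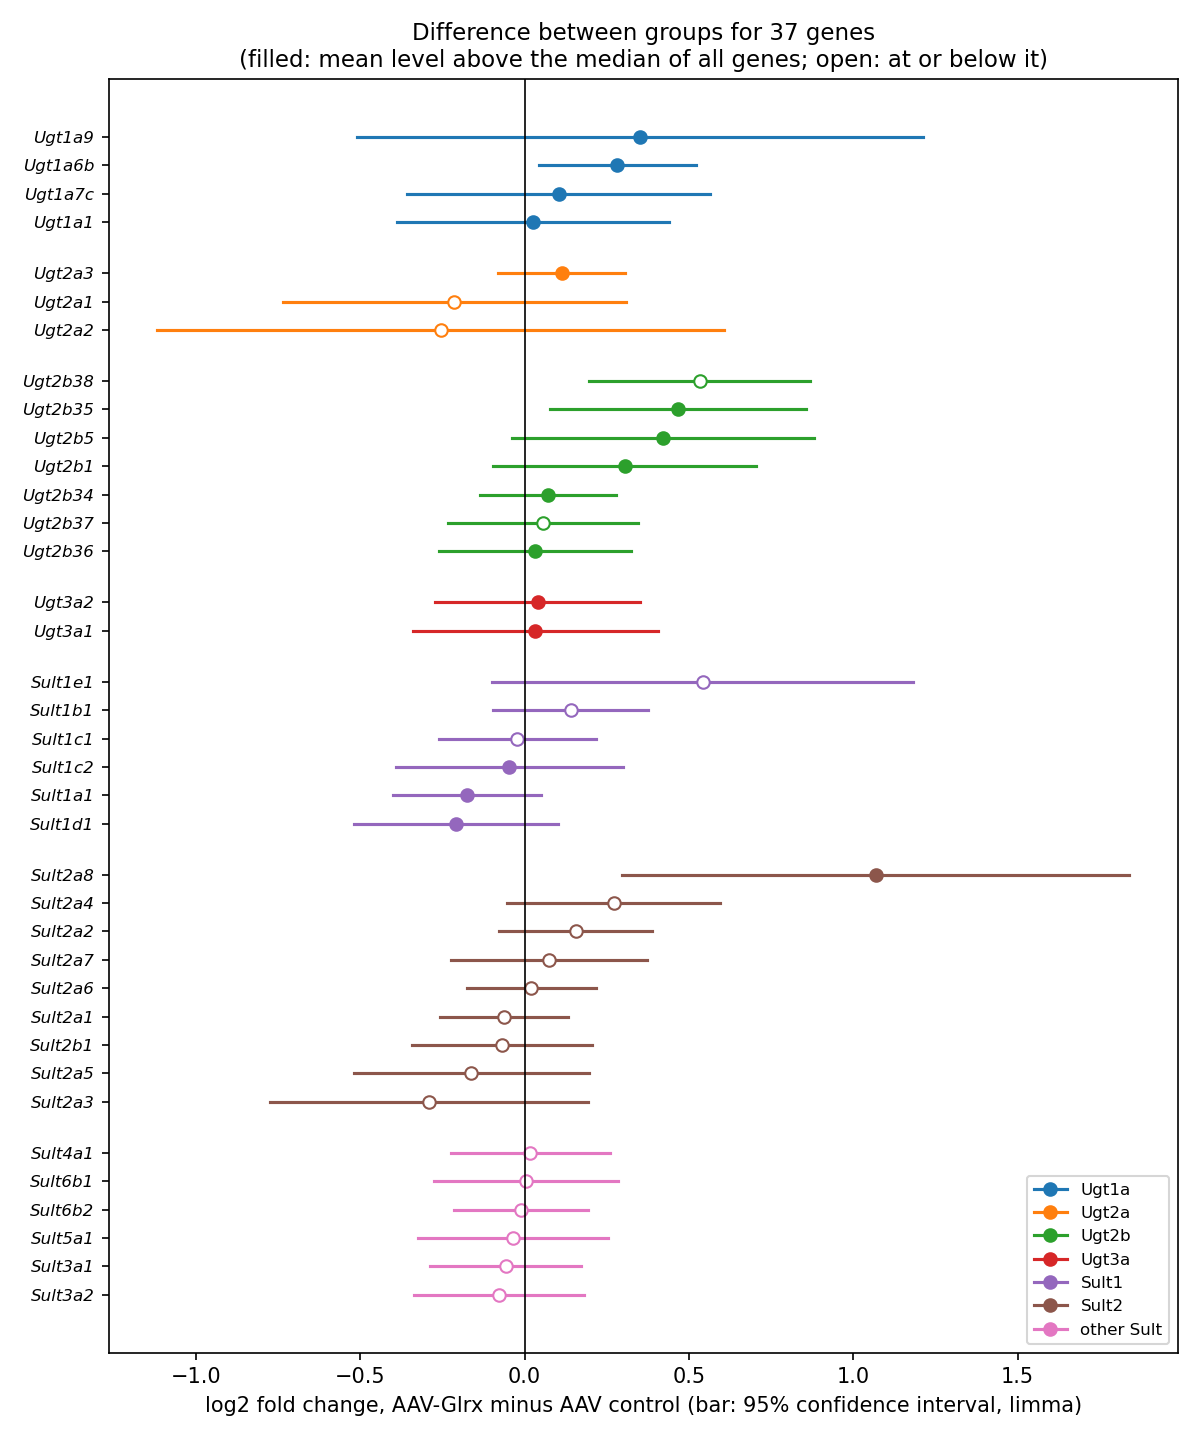
Log2 fold change (AAV-Glrx minus AAV control) of the 37 genes by subfamily, with the 95% confidence interval of limma; filled points are genes with a level above the median of all genes. Sult2a8 lies farthest to the right at 1.07, and the 7 Ugt2b genes all lie to the right of 0.

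Sult2a8 encodes the sulfotransferase that adds sulfate to primary bile acids in mouse liver. Its log2 expression was 5.45, 5.78 and 5.66 in AAV control 1, 2 and 3 and 7.11, 7.16 and 5.81 in AAV-Glrx 1, 2 and 3. AAV-Glrx 1 and 2 were far above all control pools, while AAV-Glrx 3 exceeded the highest control pool by only 0.0351. The means were 5.63 ± 0.17 and 6.70 ± 0.76 (SD, n = 3 pools each), a log2 fold change of 1.07 (SE 0.33, 95% interval 0.30 to 1.84), or 2.10-fold (limma, unadjusted p = 0.0129, adjusted p = 0.847). Without AAV-Glrx 3 the log2 fold change was 1.51 (limma, unadjusted p = 7.546e-06, adjusted p = 0.207), and with any other pool left out it was lower than that, down to 0.83. In all, 3 of the 37 genes, Sult2a8, Ugt2b38 and Sult1e1, were higher by at least 0.5 on the log2 scale (0.5% of all genes), and 0 were lower by as much (0.606% of all genes).

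Sult2a8 was the only one of the 8 Sult2a genes, which lie in a cluster on chromosome 7, with a level above the median of all genes. The other 7 had mean levels of 1.13 to 2.97, and their pools overlapped between the groups. Sult2a4 had a log2 fold change of 0.27 (SE 0.14), Sult2a2 0.16 (SE 0.10) and Sult2a3 -0.29 (SE 0.21; -0.06 without AAV control 3). Sult2a1, the hydroxysteroid sulfotransferase of female mouse liver, was near the floor of the array in every pool (1.06 to 1.21). The Sult2a genes are close copies, so a probe of one may bind the mRNA of another. Sult2b1, which sulfates cholesterol and lies elsewhere on the chromosome, was between 3.06 and 3.41 in all 6 pools. The median log2 fold change of the 9 Sult2 genes was 0.02.

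**Figure D2:**
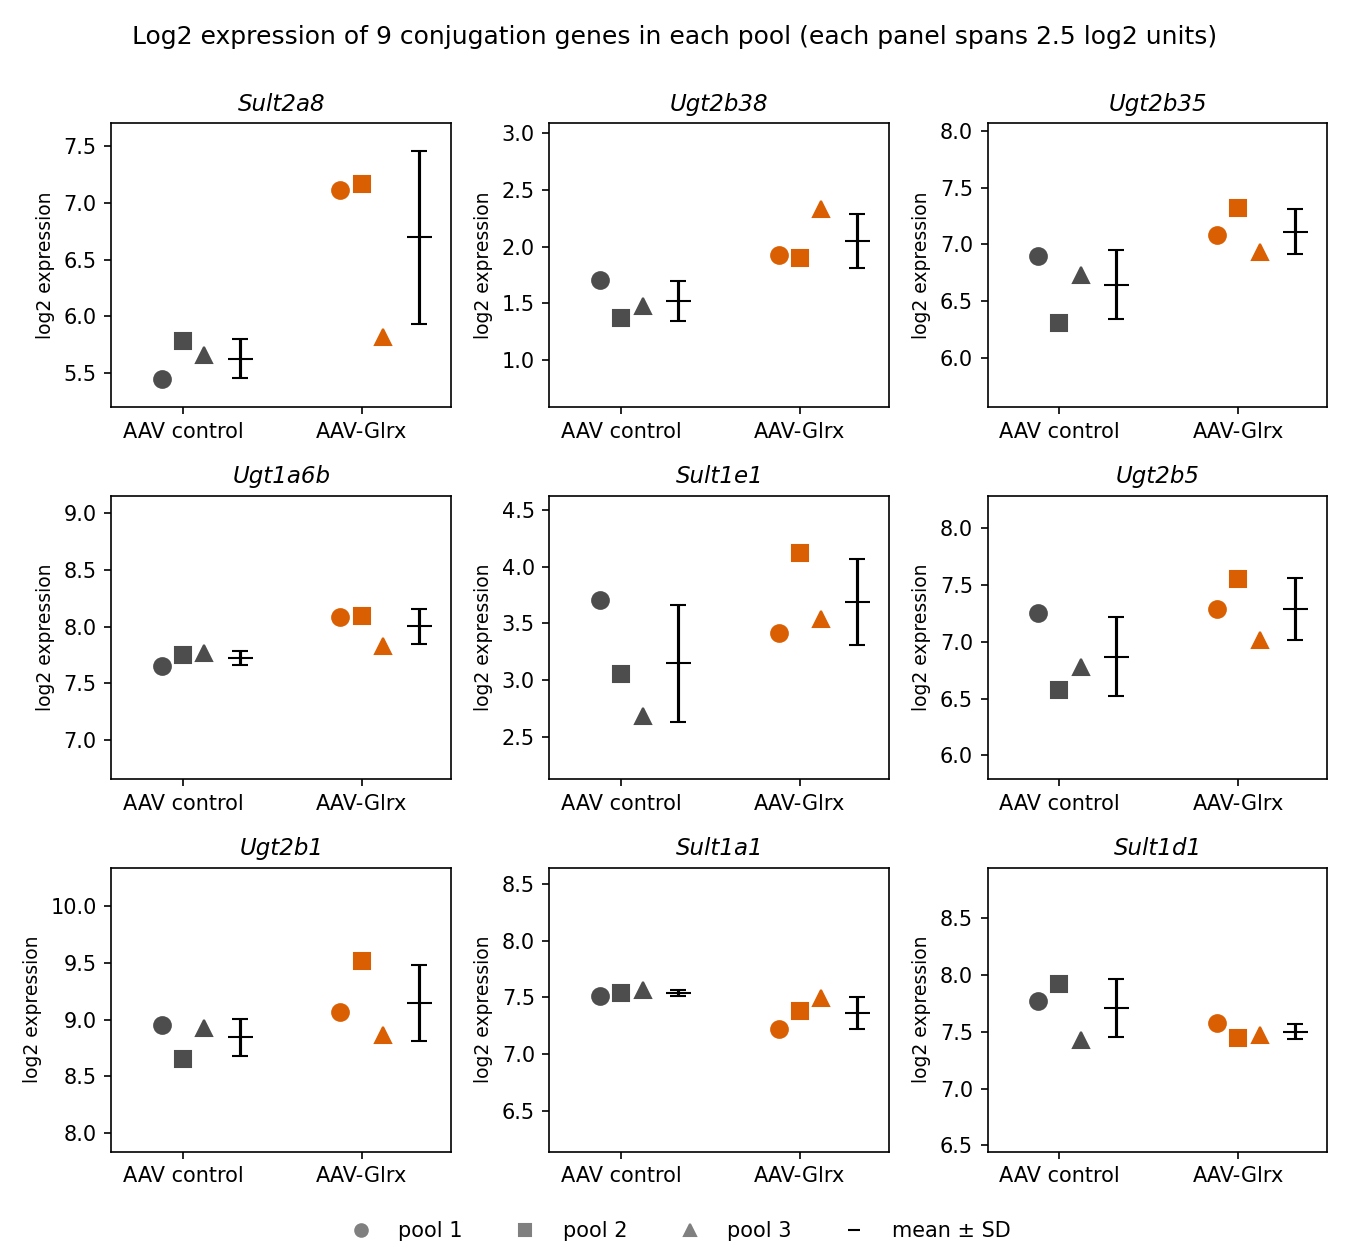
Log2 expression in each pool (marker shape gives the pool number) for 9 of the family's genes, with the mean and SD of each group (n = 3 pools) in black. The AAV-Glrx pools of Sult2a8 spread from 5.81 to 7.16, and those of Sult1e1 overlap the AAV control pools.

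The Ugt2b genes are a row of close copies on chromosome 5 that conjugate steroids and bile acids. All 7 had a higher mean in AAV-Glrx, against 49.5% of all genes, with a median log2 fold change of 0.30. Close copies may share signal, so the 7 are not independent of one another. Ugt2b35 was 6.90, 6.31 and 6.73 in AAV control 1, 2 and 3 and 7.08, 7.32 and 6.93 in AAV-Glrx 1, 2 and 3. The groups did not overlap, by a gap of 0.0339 between the lowest AAV-Glrx and the highest AAV control pool. Its means were 6.65 ± 0.30 and 7.11 ± 0.20 (SD, n = 3 pools each), a log2 fold change of 0.47 (SE 0.17), or 1.38-fold (limma, unadjusted p = 0.0249, adjusted p = 0.847). Without AAV control 2, its lowest pool, the log2 fold change was 0.30 and the unadjusted limma p 0.0727, and without AAV-Glrx 2 they were 0.36 and 0.0872.

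Ugt2b38 was 1.71, 1.37 and 1.48 in AAV control 1, 2 and 3 and 1.93, 1.90 and 2.33 in AAV-Glrx 1, 2 and 3. All AAV-Glrx pools were higher, with a gap of 0.19, but every value was below the median of all genes, where the signal is close to background. Its log2 fold change was 0.53 (SE 0.14), or 1.45-fold (limma, unadjusted p = 0.00654, adjusted p = 0.847), the smallest p of the family. Ugt2b37, whose promoter window is the most like it, was also dim (1.60 to 1.95) and had a log2 fold change of 0.06 (SE 0.12).

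Ugt2b5, abundant in mouse liver, was 7.25, 6.58 and 6.78 in AAV control 1, 2 and 3 and 7.29, 7.56 and 7.02 in AAV-Glrx 1, 2 and 3. AAV control 1 lay inside the AAV-Glrx range, so the groups overlapped. The log2 fold change was 0.42 (SE 0.20; limma, adjusted p = 0.858), and 0.27 without AAV control 2. Ugt2b1 was 8.95, 8.66 and 8.93 in the control pools and 9.06, 9.52 and 8.86 in the AAV-Glrx pools in the same order. Only AAV-Glrx 2 stood clear of the others, and the log2 fold change was 0.30 (SE 0.17; limma, adjusted p = 0.872), which was 0.12 without that pool. Ugt2b34 and Ugt2b36, at mean levels of 9.92 and 8.03, had log2 fold changes of 0.07 (SE 0.09) and 0.03 (SE 0.13).

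In the deviation from each gene's mean over all arrays, the median of the 7 Ugt2b genes was 0.02, -0.34 and -0.15 in AAV control 1, 2 and 3 and 0.13, 0.15 and -0.07 in AAV-Glrx 1, 2 and 3. AAV control 2 was lowest, and AAV-Glrx 3 lay below AAV control 1. Without AAV-Glrx 2 the median log2 fold change of the 7 genes was 0.12. Of the Ugt2a genes, which share the region with Ugt2b, Ugt2a3, whose human counterpart conjugates bile acids, was between 7.81 and 8.02 in all pools (log2 fold change 0.11, SE 0.08). Ugt2a1 and Ugt2a2, which share exons and are best known from the olfactory lining, had mean levels of 1.64 and 3.11 and log2 fold changes below 0, with the pools of both groups overlapping.

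**Figure D3:**
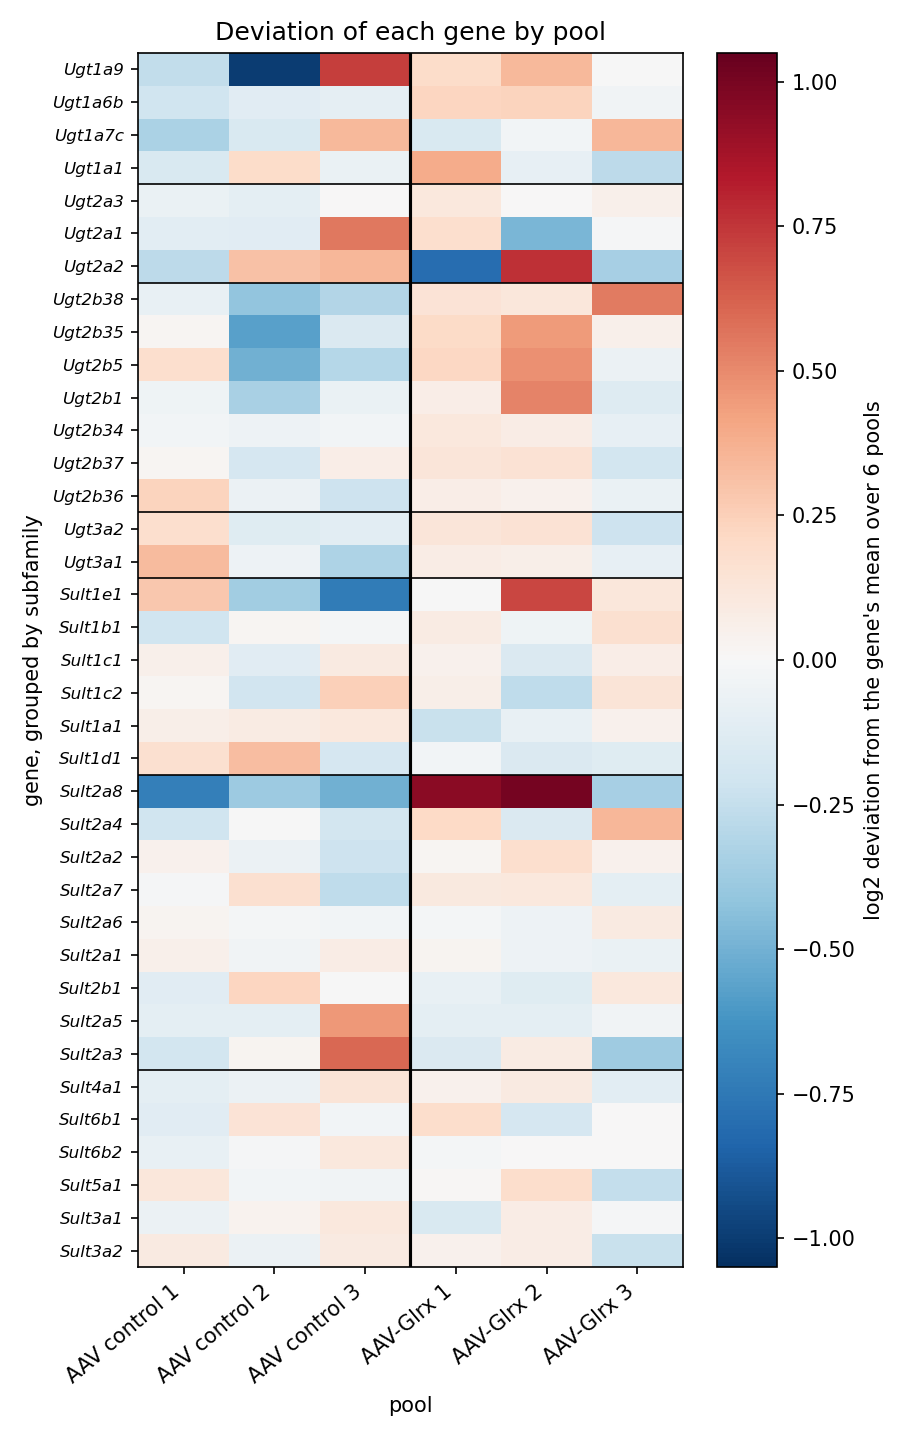
Deviation of each gene from its mean over the 6 arrays (log2), for the 37 genes in subfamily order and the 6 pools. Sult2a8 is high in AAV-Glrx 1 and 2. Ugt2b1, Ugt2b5, Ugt2b35 and Ugt2b38 are lowest in AAV control 2, and the other Ugt2b rows are not.

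The Ugt1a genes come from a single locus on chromosome 1 in which separate first exons are joined to common 3' exons, so a probe in the common part measures all of them. Ugt1a6b, of the enzyme type that conjugates small planar phenols, was 7.65, 7.75 and 7.77 in AAV control 1, 2 and 3 and 8.09, 8.10 and 7.83 in AAV-Glrx 1, 2 and 3. The groups did not overlap, and AAV-Glrx 3 was closest to the control pools, at a gap of 0.0605. The log2 fold change was 0.28 (SE 0.10), or 1.22-fold (limma, unadjusted p = 0.0266, adjusted p = 0.847). Without AAV control 1, AAV-Glrx 1 or AAV-Glrx 2 the unadjusted limma p was 0.0773, 0.0863 and 0.0853. The near copy Ugt1a6a was not analysed here.

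Ugt1a1, which conjugates bilirubin, was 6.91, 7.26 and 7.00 in AAV control 1, 2 and 3 and 7.46, 6.99 and 6.80 in AAV-Glrx 1, 2 and 3. These ranges overlapped almost wholly, and the log2 fold change was 0.02 (SE 0.18, 95% interval -0.39 to 0.44). Ugt1a9, whose human counterpart conjugates phenols and fatty acids, varied most among the control pools, at 5.22, 4.49 and 6.21, against 5.68, 5.82 and 5.48 in AAV-Glrx. The AAV-Glrx pools lay inside the control range, and its log2 fold change of 0.35 (SE 0.37) was -0.06 without AAV control 2. Ugt1a7c had a log2 fold change of 0.10 (SE 0.20). The 4 genes had a median log2 fold change of 0.19 (0.0881 without AAV control 2). Ugt3a1 and Ugt3a2, whose human counterparts use sugars other than glucuronic acid, had mean levels of 6.59 and 8.66 and a median log2 fold change of 0.04.

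Among the 6 Sult1 genes, the median log2 fold change was -0.03 and 2 had a higher mean. Sult1a1, the main phenol sulfotransferase of liver, was 7.51, 7.54 and 7.57 in AAV control 1, 2 and 3 and 7.22, 7.38 and 7.50 in AAV-Glrx 1, 2 and 3. All AAV-Glrx pools were lower, AAV-Glrx 3 by only 0.0151 from the nearest control pool. The log2 fold change was -0.18 (SE 0.10; limma, unadjusted p = 0.111, adjusted p = 0.869). Sult1d1, which sulfates catecholamines in mouse, was 7.77, 7.93 and 7.43 in the control pools and 7.58, 7.45 and 7.48 in the AAV-Glrx pools. AAV control 3 was the lowest of all 6, so the groups overlapped (log2 fold change -0.21, SE 0.13; -0.10 without AAV control 2 and -0.35 without AAV control 3).

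Sult1e1, the estrogen sulfotransferase, was 3.70, 3.06 and 2.68 in AAV control 1, 2 and 3 and 3.41, 4.12 and 3.53 in AAV-Glrx 1, 2 and 3. AAV control 1 lay above AAV-Glrx 1 and 3. The log2 fold change was 0.54 (SE 0.28, 95% interval -0.10 to 1.18; limma, unadjusted p = 0.0867, adjusted p = 0.859), at a level near the median of all genes. With 1 array left out it ran from 0.31, without AAV control 3, to 0.82, without AAV control 1, and it was also below 0.5 without AAV control 2 or AAV-Glrx 2. Sult1b1, a thyroid hormone sulfotransferase, was dim and had a log2 fold change of 0.14 (SE 0.10), and Sult1c1 and Sult1c2 had lower means by less than 0.05. The other 6 SULTs, Sult3a1, Sult3a2, Sult4a1, Sult5a1, Sult6b1 and Sult6b2, had mean levels of 1.36 to 3.55, below the median of all genes, and a median log2 fold change of -0.02. None of these 6 differed by 0.1 or more.

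The pools of a group differed among themselves across the family. Of the 37 genes, AAV-Glrx 2 was the highest AAV-Glrx pool in 18 and AAV-Glrx 3 the lowest in 18. Among the control pools, AAV control 3 was highest in 16, while AAV control 2 was lowest in 15 and AAV control 1 in 14. The same order over all genes was not counted. The mean SD over the 37 genes was 0.21 in AAV control and 0.20 in AAV-Glrx.

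The genes around the family in the same pathways are described by counts at an unadjusted limma p below 0.05, which 2.76% of all genes reached upward and 3.01% downward. None of them passed the adjusted threshold. Of 8 genes that make UDP-glucuronic acid and carry nucleotide sugars, 0 were higher and 0 lower at that p (median log2 fold change -0.05). Slc35d1, a carrier of UDP-glucuronic acid into the endoplasmic reticulum, was at 0.22 (SE 0.11), Ugp2, which makes UDP-glucose, at -0.15 (SE 0.09), and Ugdh, which oxidizes it to UDP-glucuronic acid, at -0.13 (SE 0.09). Of 10 genes of PAPS and sulfate supply, 0 were higher and 1 lower (10% of the list, median 0.05). The lower one was Papss2, a PAPS synthase, at 9.80, 9.67 and 9.67 in AAV control 1, 2 and 3 and 9.38, 9.29 and 9.63 in AAV-Glrx 1, 2 and 3. Its pools did not overlap, AAV-Glrx 3 being nearest to the controls, and the log2 fold change was -0.28 (SE 0.11; limma, adjusted p = 0.847). Of 6 genes that remove the conjugates again, sulfatases, their activating enzymes and β-glucuronidase, 0 were called in either direction (median 0.04).

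Of 16 transporters that carry conjugates and bile acids, 3 were higher (18.8%, against 2.76% of all genes) and 1 lower (6.25%, against 3.01%), with a median of 0.02. Slco1a1, an uptake carrier of steroid conjugates that is higher in male mouse liver, was 5.88, 4.94 and 5.41 in AAV control 1, 2 and 3 and 7.03, 8.39 and 5.87 in AAV-Glrx 1, 2 and 3. AAV-Glrx 1 and 2 were high, as for Sult2a8, while AAV-Glrx 3 was at the level of AAV control 1 (log2 fold change 1.69, SE 0.56; limma, adjusted p = 0.847). Without AAV-Glrx 2 the log2 fold change was 1.04. Slc10a1, the hepatocyte uptake carrier of bile acids, was at 0.29 (SE 0.11), Slco1b2, an uptake carrier of organic anions, at 0.20 (SE 0.08) and Slc10a2, the bile acid carrier of ileum and bile duct, at -0.49 (SE 0.15; -0.33 without AAV control 1).

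Of 20 nuclear receptors and liver transcription factors, 0 were higher and 2 lower (10%, against 3.01% of all genes; median 0.01). Vdr, the vitamin D receptor, was at -0.54 (SE 0.12) and Cebpb at -0.31 (SE 0.10). Vdr was dim, with means of 3.52 in AAV control and 2.98 in AAV-Glrx, below the median of all genes. Nr1h4, the bile acid receptor FXR, was at 0.23 (SE 0.11) and Cebpa at 0.19 (SE 0.09). Onecut1, named here after its values were seen, encodes hepatocyte nuclear factor 6 and was 5.36, 6.89 and 7.38 in AAV control 1, 2 and 3 and 7.62, 6.91 and 7.97 in AAV-Glrx 1, 2 and 3. AAV control 1 was far below the other 5 pools, and the log2 fold change was 0.96 (SE 0.49; limma, adjusted p = 0.862), which was 0.37 without AAV control 1.

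Genes driven by the receptors that also act on UGTs and SULTs were as follows. Of 17 targets of CAR and PXR, the drug-sensing receptors, 1 was higher (5.88%, against 2.76% of all genes) and 3 were lower (17.6%, against 3.01%), with a median of -0.04. These were the cytochrome P450 genes Cyp2c54 at 0.53 (SE 0.17), Cyp2c29 at -0.50 (SE 0.16) and Cyp2c55 at -0.76 (SE 0.25), and the glutathione transferase gene Gstm3 at -0.75 (SE 0.22). Of 7 targets of the aryl hydrocarbon receptor, 0 were called (median -0.02). Of 13 targets of NRF2, the regulator of antioxidant genes, 0 were higher and 2 lower (15.4%, against 3.01% of all genes; median -0.11), Gstm3 again and Gsta4, another glutathione transferase gene, at -0.37 (SE 0.11).

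Male-biased liver genes also had higher means in AAV-Glrx. Ugt2b38 and Ugt2b1 belong to the list of male-biased genes, and without them 16 genes were measured, of which 15 had a higher mean (93.8%, against 49.5% of all genes). At an unadjusted p below 0.05, 8 passed upward (50%, against 2.76% of all genes) and 0 downward (against 3.01%), and the median log2 fold change was 0.67. Like the other lists here, this one was chosen with earlier results of these data known, so its counts are a description and not a test. Cyp4a12a, a male-specific cytochrome P450, was 5.42, 3.88 and 5.30 in AAV control 1, 2 and 3 and 6.54, 6.62 and 6.18 in AAV-Glrx 1, 2 and 3. All AAV-Glrx pools were above all control pools (log2 fold change 1.58, SE 0.38; limma, adjusted p = 0.847). Selenbp2, a selenium-binding protein gene, was at 0.89 (SE 0.25) and Nudt7, of peroxisomal coenzyme A breakdown, at 0.74 (SE 0.21). Per pool, the median deviation of the 16 genes was -0.01, -0.57 and -0.36 in AAV control 1, 2 and 3 and 0.57, 0.72 and -0.22 in AAV-Glrx 1, 2 and 3. AAV-Glrx 3 lay below AAV control 1 in this list, as it did in the Ugt2b median, which includes Ugt2b1 and Ugt2b38. For Sult2a8, AAV-Glrx 1 and 2 were likewise the highest pools, but AAV control 1 was the lowest of the 6.

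Female-biased genes leaned the other way. The 5 family members on that list were Sult1e1, Sult2a1, Sult2a2, Sult3a1 and Sult3a2, of which 2 had a higher and 3 a lower mean. Of the other 20, 14 had a lower mean, 0 passed upward and 2 downward at an unadjusted p below 0.05 (10%, against 3.01% of all genes), with a median log2 fold change of -0.14. The 2 were Cyp2c69 at -0.27 (SE 0.11) and Atp6v0d2 at -0.54 (SE 0.22). Next by p, and not passing, were Cyp4a10 at -0.59 (SE 0.26) and Acot3, which was higher, at 0.36 (SE 0.18). Per pool, their median deviation was 0.02, 0.11 and 0.09 in AAV control and -0.08, -0.17 and 0.07 in AAV-Glrx. The part of sex-biased expression in the differences of the UGTs and SULTs was not tested. Of 5 sex chromosome genes, 0 were called; the Y-linked Uty was between 6.56 and 6.76 and Xist between 2.67 and 2.89 in all 6 pools.

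**Figure D4:**
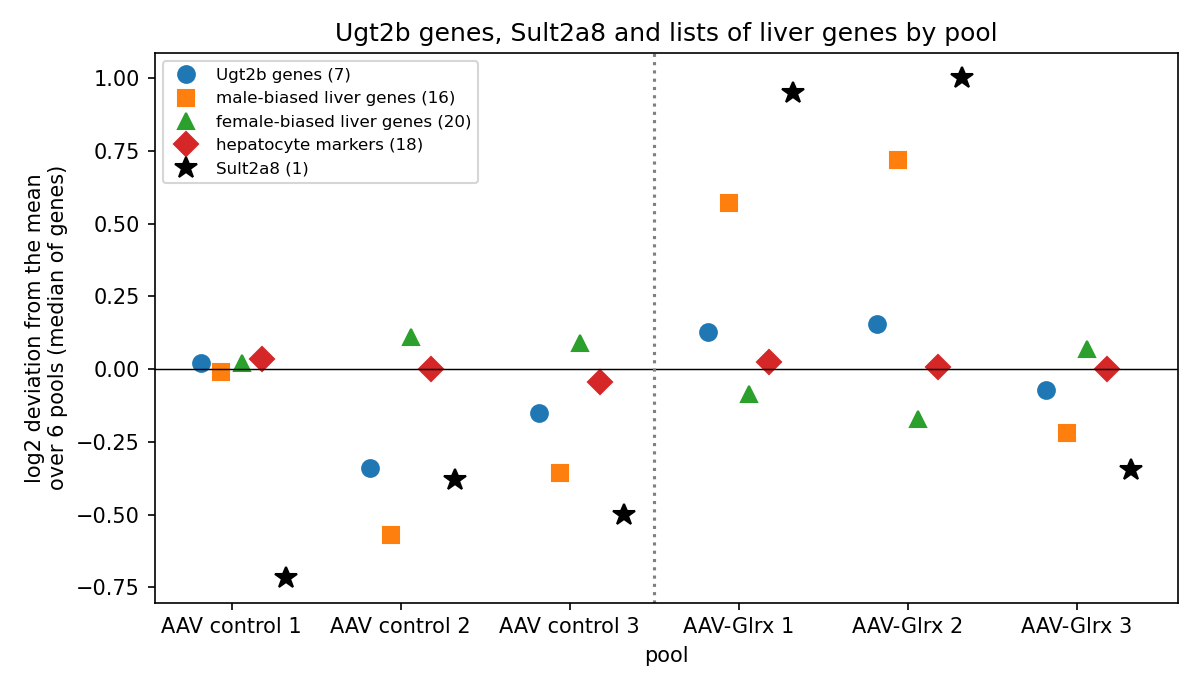
Median deviation from the gene mean (log2) per pool for the Ugt2b genes and for male-biased, female-biased and hepatocyte genes, the sex-biased lists without family members, with the deviation of Sult2a8 as a star. Male-biased genes run from -0.57 in AAV control 2 to 0.72 in AAV-Glrx 2, while hepatocyte markers stay between -0.04 and 0.03.

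Markers of the other cells of the liver were counted beside the family, since in whole liver fewer cells of a type and less RNA per cell cannot be told apart. All 9 B cell markers had a lower mean in AAV-Glrx, 3 at an unadjusted p below 0.05 (33.3%, against 3.01% of all genes). Their median log2 fold change was -0.29, with a median deviation of -0.05, 0.23 and 0.17 in AAV control 1, 2 and 3 and -0.28, -0.21 and 0.08 in AAV-Glrx 1, 2 and 3. AAV-Glrx 3, the pool in which Sult2a8 was lowest of its group, was the highest AAV-Glrx pool for B cell markers. The control pools ran the other way: AAV control 1 was lowest and AAV control 2 highest for both. Of 9 T cell markers 8 had a lower mean, 2 at that p (22.2%, against 3.01%; median -0.19). Of 15 macrophage markers 12 had a lower mean and 0 were called (median -0.11), and of 7 cholangiocyte markers 5 had a lower mean and 0 were called (median -0.02). Of 12 stellate cell markers 2 were higher (16.7%, against 2.76% of all genes) and 0 lower (median 0.02), and of 10 endothelial markers 0 were higher and 1 lower (10%, against 3.01%; median -0.01). For tissue that could be carried along, 0 of 9 pancreatic acinar markers were higher and 1 lower (11.1%, median -0.10), and 0 of 10 intestinal and 0 of 9 kidney tubule markers were called (medians 0.05 and 0.02). The part of these cells in the differences of the UGTs and SULTs was not tested.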

How the data were processed

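Liver RNA of 3 AAV control and 3 AAV-Glrx pools was measured on 6 arrays, grouped by the labels. The deposited log2 expression values per Entrez gene were made by the authors with RMA, which subtracts background, equalizes the distributions of the arrays and summarizes probes. Per the submitters' notes, affy 1.61.0 ran under R 3.6.0. The paper also names Entrez Gene-specific packages from Brainarray. Whether genes of close sequence still share probes, or bind each other's probes, could not be checked here. A shift of most genes would be hidden. All 27381 genes were fitted with limma 3.58.1 (lmFit, eBayes; R 4.3.3) without covariates or filter, with Benjamini-Hochberg adjustment and a threshold of 0.1. The number of arrays limits the precision.

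Values per pool are given for members at an unadjusted p below 0.05, with an absolute log2 fold change of at least 0.5, or of at least 0.2 without overlap, and for others of interest chosen after their values were seen; of each described list, up to 4 genes with the smallest p. The members and the 21 lists were chosen with earlier results of these data known. Alternatives were the prior, centring, normalization, a filter, array weights, a replicate block, thresholds and each array left out. The fit was also run on simulated data with independent noise for each gene, which checks the code and not the differences reported here.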

Additional observations from a re-analysis of the deposited data

How the results depend on the processing

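Limits are the 3 pools per group, the unknown division of mice among pools and possible shared probes between close copies. The dim signal of 21 of the 37 genes is another. Over 460 values of the 37 genes under the alternatives, 422 kept the direction and 38 reversed, in 21 genes. Of 222 values with an array left out, 186 kept the direction and 36 reversed. Of the other 238, 236 kept it. Another prior, the replicate block and the filter leave a gene's log2 fold change unchanged. Values under these kept their direction by construction and say nothing of stability. In no alternative did the direction of Sult2a8, Ugt2b38, Ugt2b35, Ugt1a6b, Sult1e1 or Sult1a1 change. Leaving out 1 array at a time, the log2 fold change ran from -0.0574 to 0.80 for Ugt1a9, from -0.0466 to 0.30 for Ugt1a7c, from -0.165 to 0.167 for Ugt1a1, from -0.069 to 0.15 for Ugt2b36 and from -0.0188 to 0.17 for Ugt2b37.

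The single call over all genes fell to 0 with another quantile normalization, with the replicate number as a block, or at an adjusted p under 0.05, and was 0 to 2 with an array left out. The labels number the pools 1 to 3 in each group, but same-numbered pools did not deviate together (r = -0.0361, -0.171 and 0.0205 across genes), and not every pool correlated best with its own number, so the numbers were not read as pairs. With the replicate block, an unadjusted p below 0.05 was again reached by 4 members upward and 0 downward. At an unadjusted p below 0.01, 1 member was higher. With an array left out, 3 to 6 members were higher and 0 to 1 lower, 4 to 8 were higher without overlap and 1 to 3 lower without overlap. Fewer pools separate more easily, and the shares of all genes were not counted for these fits. The counts therefore cannot be set beside the shares given above or read as a gain in separation. With another quantile normalization 0 members were lower without overlap.

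The family's median log2 fold change of 0.03 was 0.0872 among members above the median level, of which 13 had a higher mean, and the mean in place of the median was 0.0926. With an array left out it was 0.00675 to 0.0803. Among genes above the median level, the medians were 0.11 for Ugt2a, -0.18 for Sult1 and 1.07 for Sult2, where Sult2a8 alone was left. With an array left out, the median ran from 0.12 to 0.39 for Ugt2b, from -0.32 to 0.0808 for Ugt2a, from -0.093 to 0.0603 for Sult1 and from -0.0232 to 0.0383 for Sult2. The cause of these shifts was not tested.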
